A study of Mus musculus with 2 samples.

Results

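Intraepithelial lymphocytes (IELs) are T cells that lie between the epithelial cells of the gut, where they meet compounds from food. The 9 genes described here encode receptors for such compounds and the partners or targets of these receptors. They were chosen by name, by a rule that uses no measured value although earlier results of these data were known, out of 20887 genes that could be named on the arrays. Ahr encodes the aryl hydrocarbon receptor (AhR), Arnt its DNA-binding partner, and Ahrr, Cyp1a1, Cyp1b1 and Tiparp are textbook targets of AhR. Vdr encodes the vitamin D receptor, Rara a retinoic acid receptor, and Rxra a retinoid X receptor, the shared partner of the other two. All 9 genes had a probe, with 15 probes in all.

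AhR is held in the cytosol by chaperones until it binds a ligand, such as a breakdown product of tryptophan or of plants of the cabbage family. It then enters the nucleus, pairs with Arnt and binds xenobiotic response elements, which share the core GCGTG. Among the genes it turns on are Cyp1a1 and Cyp1b1, whose enzymes degrade AhR ligands, and Ahrr and Tiparp, whose products hold AhR back. Mice without Ahr are known to have few IELs, and mice without Vdr are known to have few CD8αα+ IELs. Retinoic acid acts through the retinoic acid receptors and gives T cells the receptors that lead them to the small intestine.

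The RNA came from TCRαβ+ CD8αα+ IELs of the small intestine of C57BL/6 mice, males and females pooled, at an age of 8 to 12 weeks per the labels. Cells expressing CD4, TCRγδ or CD8β were removed or gated out. The control array carries the genotype Rbpjf/f, for which the labels name no Cre, while the study's text describes the controls as Rbpj+/+ mice with CD4-Cre. The other array carries CD4-Cre Rbpjf/f (RFF4), in which Cre expressed from the Cd4 promoter deletes floxed Rbpj in T cells. RBPJ is the DNA-binding partner of the Notch receptors, and the comparison asks which genes differ when T cells lack it. RNA from several isolations was pooled for each genotype, and 150 ng were labelled with Cy3. Each genotype has 1 pool and 1 Agilent array of 1 color. Hence no test across samples, SD between samples or p-value can be given, and the number of arrays limits the precision.

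Of 59305 gene spots, 57.2% were well above background on the control array and 49.7% on the array labelled RFF4. A level is given here as the log2 signal minus the 75th percentile of the gene spots on the same array, and a difference as RFF4 minus Control on that log2 scale. The error given with a difference is the spot SD. This is the SD of a difference between single spots, taken from probes spotted 10 times whose signal was within 1 log2 unit, and it covers technical error only. Rbpj itself was not lower, at 1.96 on the control array and 2.28 on the array labelled RFF4, although its difference turned to −0.78 with the spike-in controls set equal. Where its probe lies relative to the floxed part was not determined, so that it does not check the label. The Notch targets Heyl (−3.80) and Dtx1 (−3.63) were lower. The IEL markers Cd3e (8.10 and 8.44) and Cd8a (6.24 and 6.18) were well above background on both arrays. Cd8b1, at −3.52 on the control array, was not well above background on the other. The arrays differed in markers of other cells, however, with a median difference of 1.51 over 17 epithelial genes and of 2.42 over 11 genes of macrophages and dendritic cells. In such bulk RNA, fewer cells of a type and less RNA per cell cannot be told apart.

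With this scaling, the AhR genes with a measurable signal were lower on the array labelled RFF4 by their brighter probes, and the nuclear receptor genes were higher. Ahr, Ahrr, Arnt and Tiparp had differences between −0.84 and −0.37, while Vdr, Rara and Rxra had differences between 0.82 and 1.91. When the arrays were scaled on 8 spike-in controls instead, Vdr and Rara turned to −0.13 and −0.28. The second Tiparp probe, at 0.021, did not share the direction of the brighter one. The epithelial and the macrophage and dendritic cell markers were higher too, and their part in the result on the nuclear receptors was not tested. Cyp1a1 and Cyp1b1 were not well above background on either array. Of the 7 genes with a difference, 1 was more than 2-fold higher (Rxra) and 0 were more than 2-fold lower. Over all 13513 genes with a difference, 12.3% were more than 2-fold higher and 5.05% more than 2-fold lower. A single gene past 2-fold among so few is near that background. No member was past 4-fold, against 1.85% of all genes higher and 0.585% lower. The median difference was −0.37 over the 7 genes and −0.015 over all genes.

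**Figure D1:**
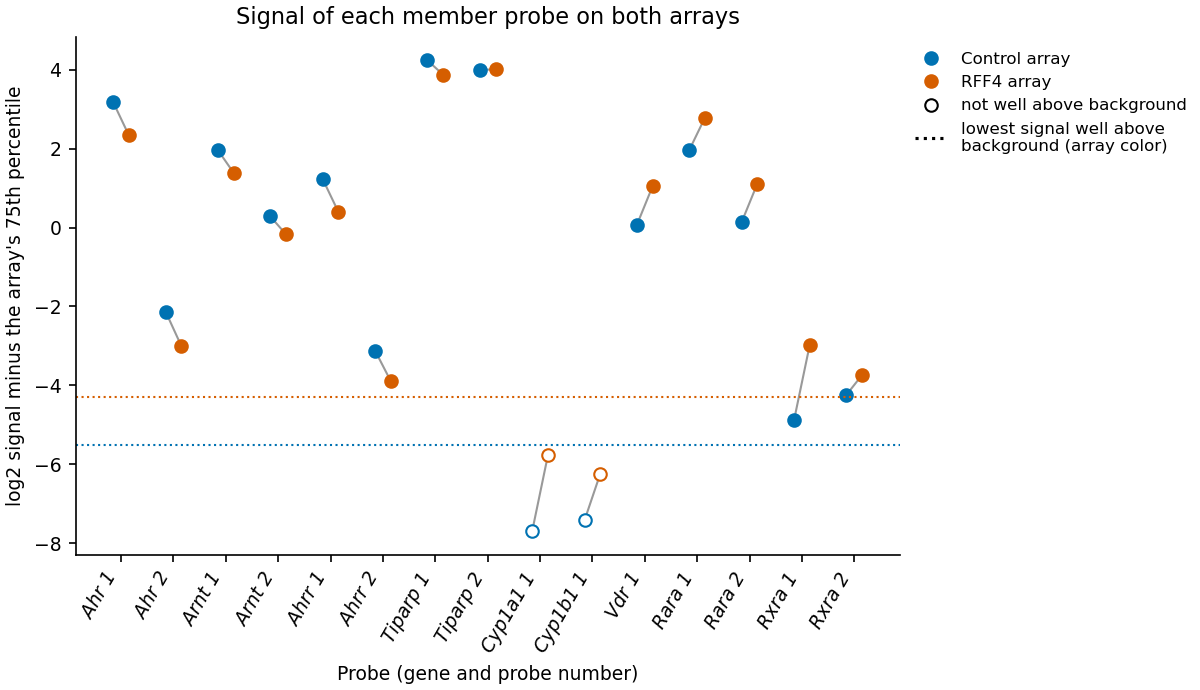
Level of each of the 15 probes of the 9 genes on the control array (blue) and on the array labelled RFF4 (orange), as log2 signal minus the 75th percentile of the array, with 1 array per genotype. Number 1 is the brighter probe of a gene, open circles are not well above background, and dotted lines mark the lowest signal well above background on each array (−5.51 and −4.29). The levels of Ahr, Arnt and Ahrr go down from left to right, those of Vdr, Rara and Rxra go up, and both Cyp1 probes lie below the dotted lines.

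Ahr (gene 11622) was measured by 2 probes. The brighter probe had a level of 3.17 on the control array and 2.33 on the array labelled RFF4. This is a difference of −0.84 (1.79-fold lower), 12.2 times its spot SD of 0.069. The other probe was dimmer, with background-subtracted signals of 116 and 28.3, and had a difference of −0.87 with a spot SD of 0.25, so that the probes differed by 0.030 only. Of all genes, 7.69% were at least as low as Ahr. Ahr was therefore among the lower genes of this comparison, without standing apart from them. The dimmer probe lost its difference with normexp background correction, where it was −0.040, while the brighter probe was −0.95.

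Arnt (gene 11863), the partner that AhR needs to bind DNA and that hypoxia-inducible factors also use, was lower by less. Its brighter probe had a level of 1.96 on the control array and 1.38 on the array labelled RFF4. The difference was −0.57 (1.49-fold lower) with a spot SD of 0.076. Its other probe, at 0.28 and −0.17, differed by −0.45 with a spot SD of 0.10. Both probes thus lay several spot SDs below 0, and 15.4% of all genes were at least as low. Whether Arnt differed from Ahr in its difference could not be tested with 1 array per genotype.

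Ahrr (gene 11624) encodes the AhR repressor, which competes with AhR for Arnt. Its brighter probe had a level of 1.23 on the control array and 0.39 on the array labelled RFF4. The difference of −0.83 (1.78-fold lower) was 9.32 times its spot SD of 0.089, and 7.87% of all genes were at least as low. The other probe was dim, at −3.12 and −3.89, with a difference of −0.77 and a spot SD of 0.43. With normexp background correction that dim probe turned to 0.39, while the brighter one stayed at −0.84. The statement that Ahrr was lower therefore rests on the brighter probe.

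Tiparp (gene 99929) encodes an enzyme that attaches ADP-ribose to AhR and limits its activity. Its probes did not give the same answer. The brighter probe had a level of 4.24 on the control array and 3.87 on the array labelled RFF4, a difference of −0.37 (1.29-fold lower) with a spot SD of 0.065. The other probe had levels of 3.99 and 4.01, a difference of 0.021 that was smaller than its spot SD of 0.065. Both were far above background, and 25.4% of all genes were at least as low as the brighter probe. The mean of both probes was −0.17, and the direction of the other probe was negative with each of the 4 other scalings, from −1.09 to −0.011, and with normexp background correction (−0.12).

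Cyp1a1 (gene 13076) and Cyp1b1 (gene 13078) encode cytochrome P450 enzymes that oxidize AhR ligands. The background-subtracted signals of Cyp1a1 were 2.46 on the control array and 4.14 on the array labelled RFF4, over a local background of 33 and 36. Those of Cyp1b1 corresponded to levels of −7.42 and −6.24, over a local background of 30.5 and 41. Neither gene was well above background on either array, so that no difference can be given. A level below this limit of detection is not shown to be absent.

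The sequences before the start of the 4 target genes are shown because AhR recognizes the core GCGTG, and because these genes divide into measured and unmeasured ones. Each line gives the 250 bases before a gene's start, read in the direction of transcription, from RefSeq on build GRCm38.p6. Capitals mark GCGTG or, where the core lies on the opposite strand, CACGC. Ahrr is at chr13:74292332-74292581 (minus strand), Tiparp at chr3:65528197-65528446 (plus strand), Cyp1a1 at chr9:57697363-57697612 (plus strand) and Cyp1b1 at chr17:79715062-79715311 (minus strand).
Ahrr: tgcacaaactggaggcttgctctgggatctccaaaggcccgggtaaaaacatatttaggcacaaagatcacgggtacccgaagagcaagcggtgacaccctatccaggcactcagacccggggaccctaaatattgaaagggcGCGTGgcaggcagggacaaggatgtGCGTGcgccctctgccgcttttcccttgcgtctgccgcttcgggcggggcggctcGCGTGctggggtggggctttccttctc
Tiparp: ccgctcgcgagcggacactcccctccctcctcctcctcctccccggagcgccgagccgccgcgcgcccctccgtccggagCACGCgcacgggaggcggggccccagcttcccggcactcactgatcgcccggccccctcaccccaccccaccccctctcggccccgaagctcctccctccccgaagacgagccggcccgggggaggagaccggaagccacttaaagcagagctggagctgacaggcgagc
Cyp1a1: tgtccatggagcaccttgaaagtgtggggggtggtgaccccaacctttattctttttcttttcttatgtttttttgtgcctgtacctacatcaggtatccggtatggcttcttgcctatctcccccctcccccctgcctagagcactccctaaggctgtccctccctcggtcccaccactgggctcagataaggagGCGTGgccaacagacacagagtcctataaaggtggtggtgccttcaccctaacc
Cyp1b1: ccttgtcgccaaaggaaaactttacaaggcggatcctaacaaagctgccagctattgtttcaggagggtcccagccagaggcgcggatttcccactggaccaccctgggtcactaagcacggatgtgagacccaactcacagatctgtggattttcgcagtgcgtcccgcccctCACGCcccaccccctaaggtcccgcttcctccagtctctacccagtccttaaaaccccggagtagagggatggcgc

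Ahrr has 3 cores in this stretch, the nearer ones starting 82 and 27 bases before the start. Cyp1a1 has 1 at 54 bases, Cyp1b1 has 1 at 76 bases and Tiparp has 1 at 170 bases, the last pair on the opposite strand. Both genes without a measurable signal thus hold the core, as do both genes with one. The RefSeq table holds 12 promoters of 8 of the 9 genes, each of 300 bases with 250 before and 50 after the start. The core, searched on both strands, is in 8 of the 12, against 32.4% of all 32851 promoters in the table. The longer form TNGCGTG, which contains the core, is in 5.07% of all promoters and occurs in that of Ahrr and in 2 of Rara. TGGGAA, the core bound by RBPJ, is in 4 of the 12, belonging to Cyp1b1, Rara and Rxra, and in 25.6% of all promoters. The Rara matches are the same site in overlapping promoters. AGGTCA, the motif of nuclear receptors that pair with RXR, is in 2 of the 12, belonging to Rara and Rxra, and in 16.3% of all promoters. These are matches of letters in a short window and not sites shown to be bound.

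Vdr (gene 22337), a nuclear receptor that pairs with a retinoid X receptor on DNA, has 1 probe. Its level was 0.070 on the control array and 1.05 on the array labelled RFF4. The difference of 0.98 (1.97-fold higher) was many times its spot SD of 0.091, and 12.7% of all genes were at least as high. The median of the epithelial markers was 1.51, and their part in this result was not tested. Vdr thus lay just under 2-fold, and passed it with quantile normalization (1.02) and also with cyclic loess. Its direction depends on the scaling, since it was −0.13 with the spike-in controls set equal.

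Rara (gene 19401), the receptor through which retinoic acid acts in T cells, was higher by both probes. The brighter probe had a level of 1.96 on the control array and 2.79 on the array labelled RFF4, a difference of 0.82 (1.77-fold higher) with a spot SD of 0.070. The other probe, at 0.14 and 1.11, had a difference of 0.97 with a spot SD of 0.090. Of all genes, 15.3% were at least as high as Rara by its brighter probe. The epithelial and the macrophage and dendritic cell markers, with medians of 1.51 and 2.42, were higher as well. With the spike-in controls set equal the probes turned to −0.28 and −0.13, and with the other 3 scalings they were above 0.

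Rxra (gene 20181) had the largest difference of the 7 measured genes with the scaling used here, although not with normexp background correction or spike-in scaling, and its signals were near background. The probe with the higher mean signal had a level of −4.88 on the control array and −2.98 on the array labelled RFF4. The difference of 1.91 (3.75-fold higher) came with a spot SD of 0.44, and 2.18% of all genes were at least as high. The signals behind it were 17.3 and 28.8 after background subtraction, with a local background of 34 and 42. The other probe, at −4.24 and −3.73, had a difference of 0.51 with a spot SD of 0.44, and its signals were 27.0 and 17.0. The probes were 1.40 apart. The part of the epithelial and the macrophage and dendritic cell markers in the Rara and Rxra results was not tested. With normexp background correction the other probe had the higher mean signal, and the differences were 0.77 for that probe and 1.09 for the first. With the spike-in controls set equal they were 0.80 for the first probe and −0.60 for the other. All 4 signals were called well above background by the scanner software, but none exceeded its local background, so that the size of the Rxra difference is poorly determined.

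**Figure D2:**
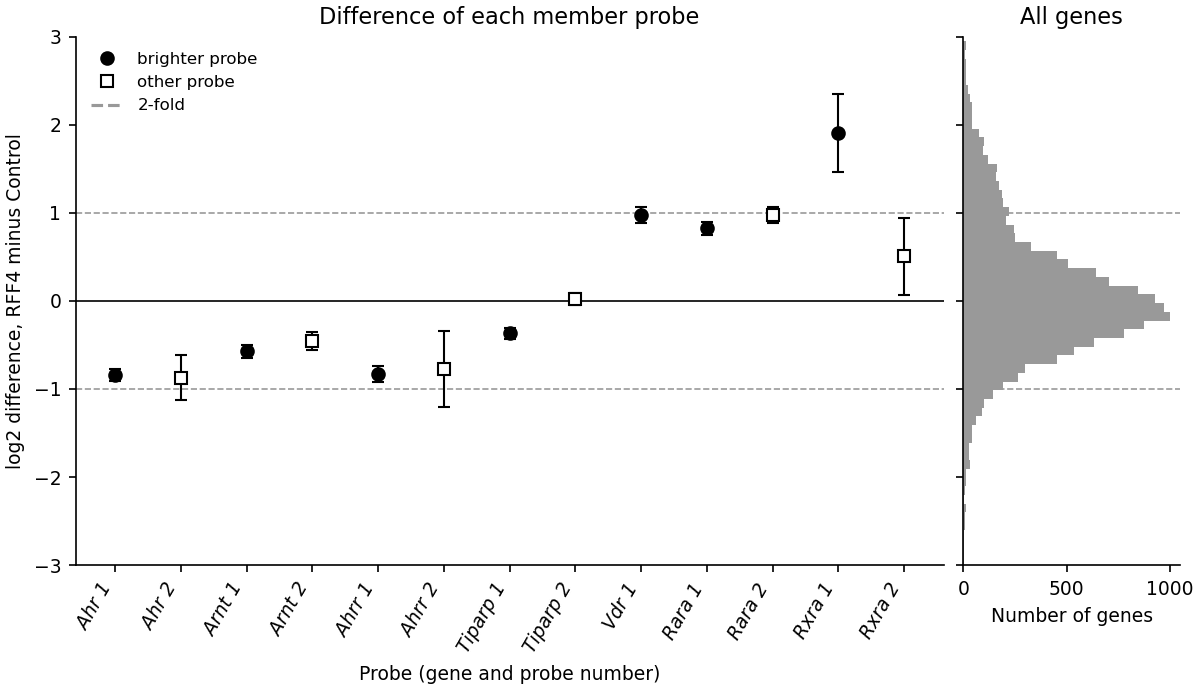
Log2 difference (RFF4 minus Control) of each of the 13 measured probes, with bars of 1 spot SD, which is technical error only, beside a histogram of all genes with a difference within 3 log2 units of 0. Filled circles are the brighter probe of a gene, open squares the other, and dashed lines mark 2-fold. Only the first Rxra probe lies past 2-fold, the bars of Rxra and of the dim Ahrr and Ahr probes are widest, and the second Tiparp probe lies on 0.

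Of the 6 genes with 2 measured probes, 5 had both probes on the same side of 0, and 4 had probes within 0.2 of each other. The exceptions were Tiparp for the sign, and Tiparp and Rxra for the distance. Scaling by another constant moved all genes together, while quantile normalization and cyclic loess moved genes by different amounts. The median of all genes shifted by −0.17 when arrays were scaled to their median and by −1.07 when 8 spike-in controls were set equal. With these scalings 1087 genes were more than 2-fold lower and 1318 higher, or 7909 lower and 207 higher, compared with 683 lower and 1667 higher here. Measured from the median of all genes, Ahr was between −0.94 and −0.75 and Vdr between 0.83 and 1.11 over 7 normalizations. On the same footing Ahrr was between −0.85 and −0.70, Arnt between −0.66 and −0.48, Tiparp between −0.54 and −0.34, Rara between 0.62 and 0.91 and Rxra between 0.78 and 1.92. By the probe that represented it, each gene lay on the same side of the median in all 7. Median scaling, spike-in scaling and the authors' log2 table shift all genes by nearly the same amount, so that their agreement is largely fixed in advance. Only quantile normalization, cyclic loess and normexp background correction could readily have changed the side.

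**Figure D3:**
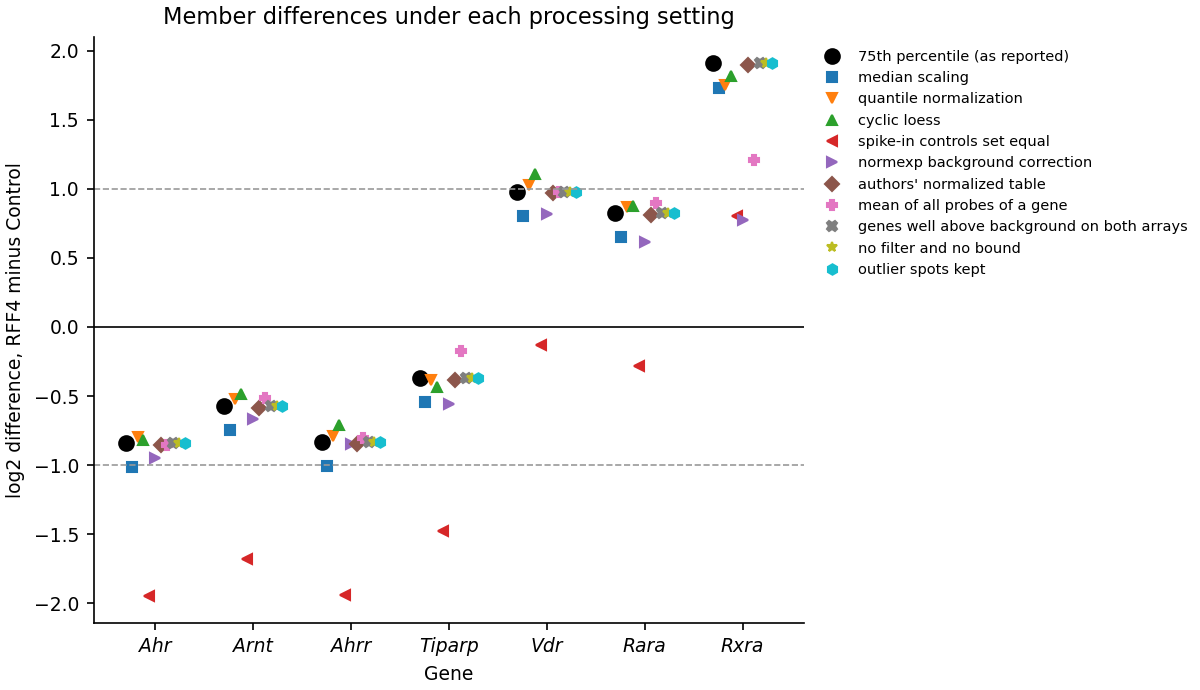
Log2 difference (RFF4 minus Control) of the 7 measured genes as reported (black circles) and with each of 10 alternative settings (colored symbols), with dashed lines at 2-fold. With the spike-in controls set equal (red), all genes lie lower by the same amount and Vdr and Rara fall below 0, while the other settings leave each gene on its side of 0.

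The other genes of AhR signaling differed in both directions. Of 19 such genes, 13 had a difference, 10 above 0 and 3 below 0, of which 3 were more than 2-fold higher and 0 more than 2-fold lower, with a median of 0.13 that turned to −0.042 with median scaling and to −0.85 with spike-in scaling. Nqo1, a quinone reductase that AhR and NRF2 both turn on, had levels of −2.46 and −1.06, a difference of 1.40. Arnt2, a relative of Arnt, had levels of −2.30 and −0.94, a difference of 1.37. Ugt1a6b, an enzyme of glucuronidation, had a difference of 1.21 by its brighter probe but 0.19 by its other one, and Ugt1a genes share exons, so that its identity is uncertain. Cyp1a2, another cytochrome P450 of AhR, was not well above background on either array, nor were Ido1, Ido2 and Tdo2, whose enzymes start the breakdown of tryptophan toward AhR ligands. Il22, a cytokine gene that AhR turns on in other lymphocytes, was well above background on the control array alone, at a level too low for a bound on the difference. Among the genes below 0, named after their values were seen, were Entpd1 (−0.51), which encodes the ectoenzyme CD39, and Kyat1 (−0.21 by both probes). Aldh3a1 (0.60) and Il4i1 (0.54), named in the same way, were above 0 with the scaling used here. The chaperones that hold AhR in the cytosol, named here after their values were seen, differed little, with 0.13 for Hsp90ab1, −0.13 for Hsp90aa1 and 0.37 for Ptges3. Hsp90ab1 turned negative with all 4 other scalings, and all of them were negative with spike-in scaling.

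Of 12 other genes of vitamin D signaling and metabolism, 7 had a difference, with 3 more than 2-fold higher, 0 more than 2-fold lower and a median of 0.25, which was −0.85 with spike-in scaling. S100g encodes an intestinal calcium-binding protein that vitamin D induces in epithelial cells, and its levels were 0.089 and 1.89. Its difference of 1.80 was 1.60 by its other probe. The 17 epithelial markers ranged from 0.31 to 1.89. Cyp2r1, which makes the circulating form of vitamin D, had a difference of 2.09 by its brighter probe, from 0.93 to 3.02, but −0.25 by its other probe. Cubn, a receptor that takes up vitamin D with its binding protein, was well above background on the array labelled RFF4 only, with a lower bound of 1.35 on the difference at this scaling. With spike-in scaling that bound was 0.24, and the mean of all its probes gave 0.31, so that it does not hold as a call past 2-fold. Cyp24a1, the enzyme that degrades active vitamin D and the best-known Vdr target, was not well above background on either array, and neither was Cyp27b1, the enzyme that makes the active form. The other retinoid X receptors, named after their values were seen, had differences of 0.052 (Rxrb) and 0.25 (Rxrg). Rxrb turned negative with all 4 other scalings, and Rxrg with spike-in scaling.

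Of 26 other genes of retinoid signaling and metabolism, which include Rxrb and Rxrg again, 14 had a difference, with 4 more than 2-fold higher, 1 more than 2-fold lower and a median of 0.22, which was −0.89 with spike-in scaling. Rbp2, the retinol-binding protein of absorptive epithelial cells, had levels of −0.60 and 1.04, a difference of 1.64, within the range of the epithelial markers. Aldh1a1, which makes retinoic acid, had levels of 1.42 and 2.55, a difference of 1.13, and Dhrs3, which turns retinal back to retinol, a difference of 1.12. Rdh10, which makes retinal from retinol, was lower, at −0.62 and −1.68, a difference of −1.06 that was −0.55 with normexp background correction and −0.96 with cyclic loess. Rarb, a retinoic acid receptor that is itself a retinoic acid target, was not well above background on either array, nor were Aldh1a2, Aldh1a3 and the retinoic acid-degrading Cyp26a1, Cyp26b1 and Cyp26c1. The gut-homing genes that retinoic acid induces in T cells, named after their values were seen, had differences of 0.21 (Ccr9), 0.11 (Itga4) and 0.066 (Itgb7). These small differences have no settled direction, since Itgb7 turned negative with all 4 other scalings, Itga4 with median and spike-in scaling, and Ccr9 with spike-in scaling.

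The other nuclear receptors and their coregulators were described in the same way. Of 32 other nuclear receptors, 28 had a difference, with 10 more than 2-fold higher, 1 more than 2-fold lower and a median of 0.41, which was −0.69 with spike-in scaling. Among those farthest from 0 were Nr5a2 (1.86), the bile acid receptor Nr1h4 (1.71), the xenobiotic receptor Nr1i2 (1.46), the fatty acid receptor Ppara (1.45) and the oxysterol receptor Nr1h3 (1.41). The median of the epithelial markers was 1.51, and their part in these values was not tested. Of 14 coregulators that nuclear receptors recruit, all 14 had a difference, with 0 more than 2-fold higher, 2 more than 2-fold lower and a median of −0.29 (−1.40 with spike-in scaling). The lower pair were Nrip1 (−1.22), a corepressor, and Ncoa6 (−1.02), a coactivator. Against a background of 12.3%, the share more than 2-fold higher was 23.1% of the measured AhR signaling genes, 42.9% (3 of 7) of those of vitamin D, 28.6% of the retinoid genes, 35.7% of the other nuclear receptors and 0% of the coregulators. More than 2-fold lower were 14.3% of the coregulators, against 5.05% of all genes, and the count of 2 was 1 with quantile normalization and with cyclic loess and 12 with spike-in scaling. With spike-in scaling 0 genes of any of these lists were more than 2-fold higher, and with the mean of all probes 1 vitamin D gene was. Genes of a list are not replicates, and these shares are descriptions of 2 arrays.

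Most markers of epithelial cells and of macrophages and dendritic cells were higher, as were Vdr, Rara and Rxra. With spike-in scaling the medians of both marker lists stayed above 0 (0.41 and 1.32), as did Rxra by its first probe (0.80), while Vdr and Rara did not. This scaling lowers all genes by the same amount. Which of them stay above 0 therefore only restates the sizes of their differences, and does not set the receptors apart from the markers. Of 17 epithelial genes, all 17 were higher, 14 of them by more than 2-fold, with a median of 1.51, and their summed signal, in units of the 75th percentile of the array, was 227 on the control array and 685 on the array labelled RFF4. The epithelial marker Vil1 had levels of 2.73 and 4.53, and Epcam had 1.86 and 2.26. Of 13 genes of macrophages and dendritic cells, 11 had a difference and all 11 were higher, 10 of them by more than 2-fold, with a median of 2.42 and summed signals of 56.2 and 132. Among these, Lyz2 had levels of −3.67 and −1.25 and H2-Aa had −1.14 and 1.81, while Mrc1 was not well above background on either array. Of 7 genes of B and plasma cells, 4 had a difference and 3 were more than 2-fold higher, with summed signals of 26.0 and 58.2, and Pax5 was not well above background. Of 7 fibroblast genes, 4 had a difference and 2 were more than 2-fold higher, with summed signals of 0.725 and 1.76, and Pdgfra was not well above background. Of 5 endothelial genes, 2 had a difference, Pecam1 (−1.03) and Kdr (1.33). The summed signals of the list were 5.31 and 12.3, and Cdh5 was not well above background. Pecam1 was not past 2-fold with cyclic loess or normexp background correction, nor Kdr with spike-in scaling. Of the IEL markers, 10 of 13 had a named probe and 0 were past 2-fold, with a median of 0.25 and summed signals of 1998 and 2427. That median was −0.054 with cyclic loess, −0.21 with quantile normalization and −0.86 with spike-in scaling, where 4 IEL markers were more than 2-fold lower. Cd4 had a difference of 0.13 by its brighter probe and −1.31 by its other one, so that its direction depends on the probe. The part of these other cells in the results on Vdr, Rara, Rxra, S100g, Rbp2, Nr1h4 and the rest of these lists was not tested. Their part in the results on Ahr, Ahrr, Arnt and Tiparp was not tested either. Kit, listed with innate lymphoid markers, was lower (3.32 and 1.86). The other innate lymphoid markers Il23r, Il1r1 and Ncr1 were not well above background on either array, and no probe was named for the γδ T cell markers Trdc and Trgc1.

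**Figure D4:**
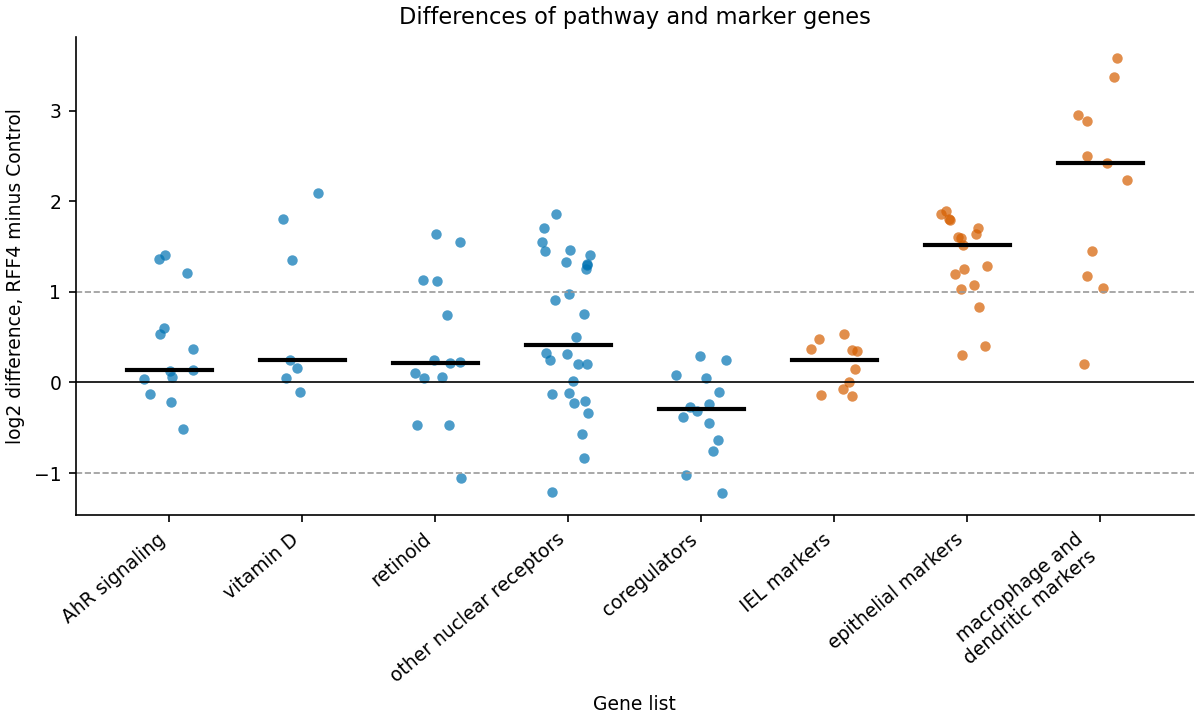
Log2 difference (RFF4 minus Control) of each measured gene in the lists of pathway genes, nuclear receptors and coregulators (blue) and of cell type markers (orange), with black bars at the median of each list and dashed lines at 2-fold. The medians run from −0.29 for coregulators to 0.41 for other nuclear receptors among the blue lists, and are 0.25 for IEL markers, 1.51 for epithelial markers and 2.42 for macrophage and dendritic markers.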

How the data were processed

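Gene expression was measured on Agilent SurePrint G3 mouse arrays. The authors deposited scanner output of Agilent Feature Extraction 10.7.1.1, in which intensity values are background-subtracted signals on a linear scale without normalization between arrays, and a table of log2 values centered per probe, made in GeneSpring with settings not given in the sources used here. The intensity values were used, and the log2 table served as an alternative.

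Spots flagged as outliers and control spots were dropped, repeated spots of a probe were averaged on the log2 scale, and the 75th percentile over gene spots was subtracted (8.99 for Control and 7.82 for RFF4). Of 55679 probes, 27509 were named by matching RefSeq accessions to assembly GRCm38.p6. A gene was represented by the probe with the highest mean signal. A difference required a signal well above background (at least 50% of spots) on 1 array or more. Where 1 array lacked it, the difference is a bound, taken from the lowest signal well above background there or from the dim signal itself if that was higher, as for 558 of 13513 genes. The overall technical SD was 0.16. Both arrays share a slide and a scan.

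The 9 genes, with every probe, and Rbpj, Heyl and Dtx1 were named by rule, as were list genes past 2-fold, at most 6 per list, genes not well above background, and defining markers. Other genes are named where stated, and a few listed genes are counted but not reported by name. The members and lists were chosen with earlier results of these data known. No gene was named for likeness of pattern, since 2 arrays hold 1 difference per gene. Alternatives were median, quantile, cyclic loess and spike-in scaling, normexp background correction (offset 50), the authors' log2 table, the mean of all probes, a filter for signals above background on both arrays, outlier spots kept, and no filter. R 4.3.3 with limma 3.58.1 and Python 3.11.15 with pandas 2.3.3, numpy 2.4.6 and matplotlib 3.10.9 were used. The steps were tested on simulated data.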

Additional observations from a re-analysis of the deposited data

How the results depend on the processing

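No paired analysis was possible because each genotype has 1 array, and for the same reason no array could be left out. Depth is given by signal over background, with a median of 9.47 on the control array and 5.78 on the array labelled RFF4 over spots well above it. A difference was taken as unmoved within the technical SD of 0.16 and a count within 1.5 times. The authors' log2 table, genes well above background on both arrays, and outlier spots kept moved none of the results. For the values that moved with other settings, the cause was not tested beyond the shift of all genes that a scaling makes by construction.

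With median scaling the differences were −1.02 for Ahr, −1.01 for Ahrr, −0.75 for Arnt, −0.54 for Tiparp, 0.80 for Vdr, 0.65 for Rara and 1.73 for Rxra, with 2 members more than 2-fold lower and 1087 genes more than 2-fold lower. List medians were −0.042 for AhR signaling, 0.078 for vitamin D, 0.044 for retinoids, −0.38 for bHLH-PAS factors, 0.15 for other nuclear receptors, −0.47 for coregulators and −0.42 for PARP relatives. There were 2 retinoid genes more than 2-fold higher, and 2 other nuclear receptors and 2 PARP relatives more than 2-fold lower.

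With the spike-in controls set equal the differences were −1.95 for Ahr, −1.94 for Ahrr, −1.68 for Arnt, −1.48 for Tiparp, −0.13 for Vdr, −0.28 for Rara and 0.80 for Rxra, with 4 members more than 2-fold lower and 0 higher. Of all genes, 7909 were lower and 207 higher by more than 2-fold, and 906 lower and 29 higher by more than 4-fold. List medians were −0.85 for AhR signaling, −0.85 for vitamin D, −0.89 for retinoids, −1.31 for bHLH-PAS factors, −0.69 for other nuclear receptors, −1.40 for coregulators and −1.36 for PARP relatives. More than 2-fold lower were 5 AhR signaling, 2 vitamin D, 5 retinoid, 9 bHLH-PAS, 10 nuclear receptor, 12 coregulator and 13 PARP genes, and 0 genes of the AhR, vitamin D, retinoid and nuclear receptor lists were more than 2-fold higher. Of the 24 list genes past 2-fold, 24 kept their sign and 4 stayed past 2-fold.

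With normexp background correction the differences were −0.55 for Tiparp, 0.82 for Vdr, 0.61 for Rara and 0.77 for Rxra, with 0 members more than 2-fold higher. Of all genes, 34 were more than 4-fold lower and 62 higher. The vitamin D median was 0.59 and the retinoid median 0.019, with 0 retinoid genes and 2 PARP relatives more than 2-fold lower. With the mean of all probes, Tiparp was −0.17 and Rxra 1.21, and 1 vitamin D gene was more than 2-fold higher. Quantile normalization gave 2 members more than 2-fold higher and 1 coregulator lower. Cyclic loess gave 2 members higher, and 0 retinoid genes, 1 bHLH-PAS factor and 1 coregulator lower. With no filter and no bound, 3 members were more than 2-fold higher, since both Cyp1 genes then entered, and of all genes 6272 were more than 2-fold higher, with 154 lower and 698 higher by more than 4-fold. The AhR signaling median was then 0.54, with 1 gene more than 2-fold lower and 7 higher, and the retinoid median 0.65 with 12 genes higher. There were 5 vitamin D genes higher, and 1 bHLH-PAS factor lower and 3 higher.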

Other observations

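Relatives of Tiparp and of AhR itself were also measured. Of 15 genes of the PARP family and its ADP-ribose hydrolases, all 15 were measured, with 10 below 0, 5 above 0 and 0 past 2-fold. Their median was −0.25 and their range −0.83 to 0.77. Against all genes, of which 5.05% were more than 2-fold lower and 12.3% higher, no gene of this list stood out. AhR and Arnt belong to the transcription factors with bHLH and PAS domains. Of 17 listed names of other such factors, 10 had a difference, with 9 below 0, 1 above 0 and 0 past 2-fold, and a median of −0.20. The 1 above 0 was Epas1, which encodes a hypoxia-inducible factor and is named after its value was seen. Its brightest probe differed by 0.66 and its other probes by −1.60 and −1.25, so that its direction depends on the probe.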
